A study of Mus musculus with 6 samples.

Results

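Described here in lung endothelial cells are 10 genes of the inflammasome, its caspases and its pore-forming machinery: the sensors Nlrp1a and Nlrp3, the kinase gene Nek7, the adaptor gene Pycard, the caspase genes Casp1, Casp4 and Casp8, the membrane-rupture genes Gsdmd and Ninj1, and the cytokine gene Il18. They were taken by symbol, and all 10 were found among the 55232 features of the deposited count table. The sequenced RNA came from mouse pulmonary microvascular endothelial cells (a cell line, per the labels) that had spent 12 h with kidney cells in a chamber system, the endothelium below. In the repletion group, 3 samples had been kept with TCMK-1 cells (tubular epithelium of mouse kidney) that were depleted of ATP and then regained it (IR in the labels). In the control group, 3 samples had been cultured with untreated TCMK-1 cells. All endothelial cells were themselves untreated. The comparison asks how their transcripts differ with the state of the kidney cells.

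An inflammasome forms when a sensor such as NLRP3 or NLRP1 meets a danger signal and, usually through the adaptor ASC (encoded by Pycard), activates caspase-1. Caspase-1 matures IL-18 and IL-1 beta and cleaves gasdermin D, whose N-terminal part forms pores in the plasma membrane, and NINJ1 then ruptures the membrane of the dying cell. Mouse caspase-11, encoded by Casp4, binds cytosolic lipopolysaccharide without such a sensor and cleaves gasdermin D directly, a route studied in endothelium during endotoxaemia.

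The libraries held 15582349 to 17817618 counts and 17899 to 22130 features with at least 1 count. Levels are given as CPM, the counts of a gene relative to the TMM-scaled total of its library, with the SD over 3 samples. Log2 fold changes are repletion over control from edgeR's quasi-likelihood test across all 13804 features that passed a filter on low counts, with the SE and a Benjamini-Hochberg adjusted p. The call threshold was an adjusted p of 0.05. The labels do not name separate cultures, and p-values therefore reflect no more than the spread among these libraries, which could be technical. No 2 libraries of a group were the same within counting error (chi-square per feature between 8.56 and 23.3). In bulk samples, fewer cells of a type and less RNA per cell cannot be told apart. The 15 endothelial markers summed to 2674 to 3132 CPM in the repletion libraries and 2469 to 2763 CPM in the control libraries, on unscaled totals (exact two-sided permutation p of 0.3). Of 14 tested, 6 rose (42.9%) and 2 fell (14.3%), against 20.5% and 19.2% of all tested features. The most abundant, Pecam1 and Cdh5, stood at 749 ± 77.7 and 538 ± 72.9 CPM in the repletion group and 749 ± 47.4 and 577 ± 72.4 CPM in control (SD, n = 3), while Cldn5, a tight junction gene of many endothelia, had 3 counts in the repletion libraries together and 0 in control.

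Of the 10 members, 7 were tested and 3 changed: Nlrp1a was higher, and Casp4 and Gsdmd were lower, in the repletion group. In the same test, 20.5% of all tested features were called higher and 19.2% lower, 39.7% in either direction. Casp8, Ninj1, Il18 and Nek7 were tested and did not pass. Nlrp3, Pycard and Casp1 had too few reads for the filter.

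**Figure D1:**
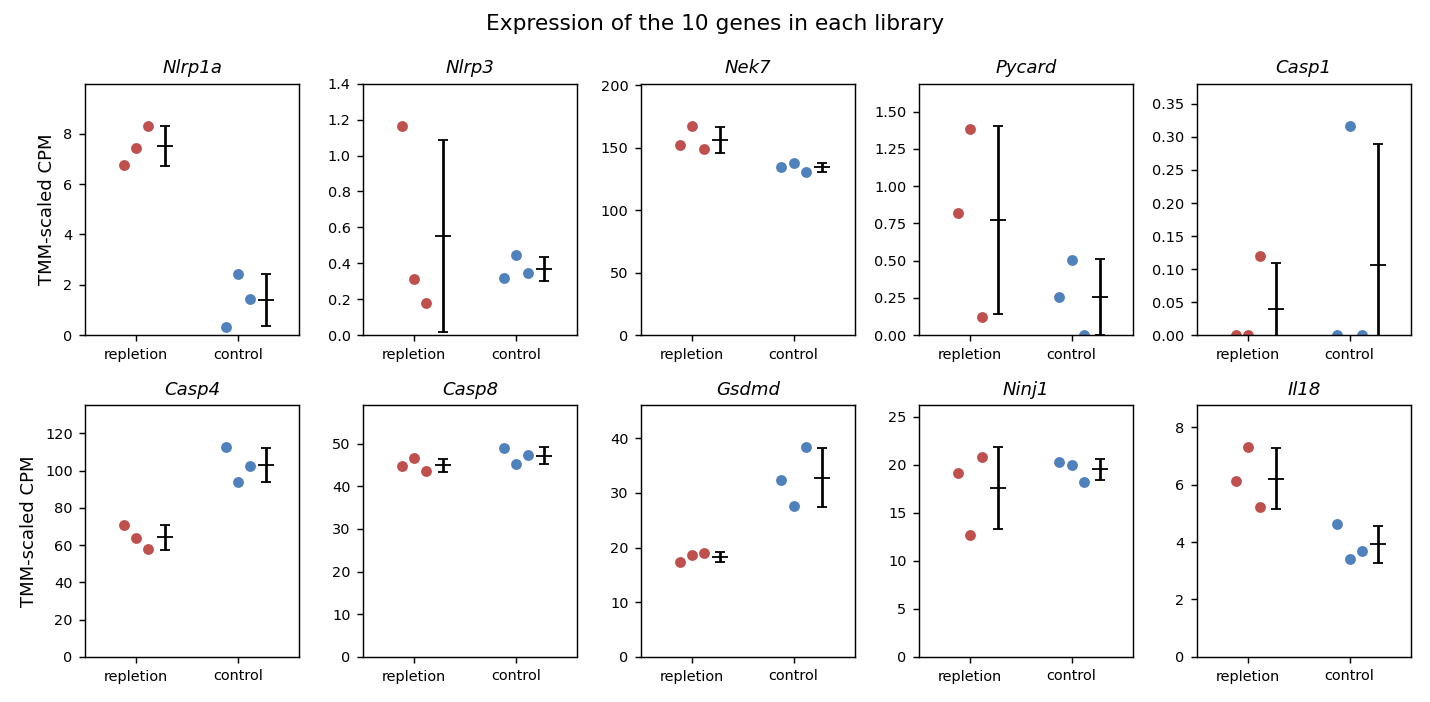
TMM-scaled CPM of each of the 10 genes (vertical axes start at 0 and differ between panels), with 3 repletion libraries as red points on the left and 3 control libraries as blue points on the right, and black bars for the mean ± SD. The groups are apart for Nlrp1a, Nek7, Casp4, Gsdmd and Il18 and overlap for the other genes. The share of all tested features with groups apart was not computed, and 39.7% of them were called, so being apart does not set these genes off from others. Nlrp3, Pycard and Casp1 stayed under 1.5 CPM in every library.

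Markers of other cell types were read beside these genes because leukocytes are rich in inflammasome transcripts. Summed over 15 leukocyte markers, levels were 269 to 392 CPM in the repletion libraries and 475 to 522 CPM in the control libraries, on unscaled totals, with an exact two-sided permutation p of 0.1, the smallest that 3 against 3 allows. Cd68, a lysosomal protein gene, made up most of this at 255 ± 42.1 CPM in the repletion group and 395 ± 24.0 CPM in control (SD, n = 3), followed by Lcp1. Both fell, and the other 2 of the 4 tested did not pass. Itgam, Tyrobp, Cd52 and Cd3e had 0 counts in all 6 libraries, and Ptprc had 4 counts in the repletion libraries in all and 0 in control. The 15 kidney tubular markers summed to 31.1 to 36.2 CPM in the repletion libraries and 18.4 to 21.7 CPM in the control libraries, with an exact permutation p of 0.1. Of 6 tested, Cubn rose by 1.97 and the others did not pass, while Epcam, Krt18, Slc34a1 and Umod had 0 counts in all 6 libraries. Fibroblast and mural markers summed to 18.6 to 29.7 CPM in the repletion libraries and 23.5 to 25.1 CPM in the control libraries. The part of the leukocyte and tubular markers in the changes of Nlrp1a, Casp4 and Gsdmd was not tested.

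Nlrp1a (ENSMUSG00000069830, chromosome 11, 71092236 to 71144704 in GRCm38, minus strand) encodes a rodent NLRP1 sensor that is held inactive by dipeptidyl peptidases and can activate caspase-1. It had 6.77, 7.43 and 8.32 CPM in the repletion libraries, against 0.318, 2.41 and 1.44 CPM in the control libraries. Every repletion library stood above every control library, and the spread was wide among the controls, where counts were 5, 38 and 25. The log2 fold change was 2.43 (SE 0.42, edgeR adjusted p = 0.000247), a 5.37-fold difference. Without control replicate 2 it was 3.04 and without control replicate 1 it was 1.95, and all 16 alternatives kept the call, with adjusted p between 1.5e-11 and 0.00270. Nlrp1a reached 10 counts in 3 repletion and 2 control libraries, so it passed the filter through the repletion group. Its neighbour Nlrp1b (71153102 to 71230733 on the same chromosome), whose transcript is 84.2% identical over 2011 aligned bases, had 0 counts in all 6 libraries, where 3 counts, the number that a count of 0 allows, would be 0.168 to 0.193 CPM. The ratio of Nlrp1a counts to those of Dpp9, the gene of a peptidase that restrains NLRP1, was 0.0642, 0.0756 and 0.0841 in the repletion libraries and 0.00727, 0.0549 and 0.0320 in the control libraries. These ratios did not overlap either, although control replicate 2 came close to the lowest repletion library. No other annotated gene shared 100 bases at 95% identity with the Nlrp1a transcript, and no annotated feature overlapped it.

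The promoter of Nlrp1a is shown because this was the member with the largest difference. The stretch, from RefSeq on GRCm38.p6, is chr11:71144655-71144954 on the minus strand, read from 250 bases before the start to 50 bases after it, with capitals for the part after the start.
Nlrp1a promoter: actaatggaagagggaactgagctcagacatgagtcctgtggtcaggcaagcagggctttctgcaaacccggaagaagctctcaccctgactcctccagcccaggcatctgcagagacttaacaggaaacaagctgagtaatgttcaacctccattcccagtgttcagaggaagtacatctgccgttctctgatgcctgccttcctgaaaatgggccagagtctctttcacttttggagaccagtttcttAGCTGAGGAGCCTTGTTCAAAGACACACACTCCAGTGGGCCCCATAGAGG
Promoters were matched for 9 of the 10 members, all but Gsdmd. Both strands were searched for an IRF-type motif (GAAA, any 2 bases, GAAA), an NF-kB-type motif (GGGA, any 2 bases, TTCC) and an AP-1-type motif (TGANTCA). None of the 3, exactly as spelled, occurred in the promoters of those 9 members. Other forms of such sites were not searched for, so their absence is not shown. The Casp4 promoter printed below, for example, holds GGGATTTCCC, a form close to the NF-kB-type motif that this spelling misses. Among 32851 promoters of 300 bases, 3.44% held the IRF-type motif, 1.47% the NF-kB-type and 7.81% the AP-1-type.

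Nlrp3 (chromosome 11, 59541568 to 59566956), the sensor of potassium efflux and membrane damage, was barely detected. It had 20, 5 and 3 counts in the repletion libraries and 5, 7 and 6 in the control libraries, and the higher repletion sum came from replicate 1. The ratio of summed counts was 1.59 with an exact 95% counting interval of 0.851 to 3.06, which covers counting error only. It did not pass the filter, and the 2 alternatives that tested it gave adjusted p of 0.717 (edgeR without the filter) and 0.738 (DESeq2).

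Nek7 (chromosome 1, 138482875 to 138620141), which encodes a mitotic kinase that binds NLRP3 and allows it to assemble, was abundant. Its level was 152, 168 and 149 CPM in the repletion libraries and 135, 138 and 131 CPM in the control libraries. The groups did not overlap, but the difference was small, with a log2 fold change of 0.22 (SE 0.10, edgeR adjusted p = 0.0953). It passed when libraries were scaled by their totals only (0.28, adjusted p of 0.0359), and the fold change was 0.04 with each library's trend in gene length and GC content modelled out, with adjusted p of 0.0359 to 0.755 over its alternatives. Its transcript shares 126 bases or fewer with 10 other genes, and an antisense feature overlaps 118 exonic bases with 3 counts in all.

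Pycard (chromosome 7, 127989708 to 127993867), the gene of the adaptor ASC that joins sensors to caspase-1, had 14, 22 and 2 counts in the repletion libraries and 4, 8 and 0 in the control libraries. The libraries overlapped, since repletion replicate 3 lay below 2 of the controls. The ratio of summed counts was 3.25, with a counting interval of 1.66 to 6.82 that leaves out the spread between replicates. The 6 alternatives that tested it gave adjusted p between 0.108 and 0.463. The value is uncertain also because Gm45205, on the opposite strand, shares 485 exonic bases with it and had 12, 4 and 5 counts in the repletion libraries and 0, 2 and 0 in control.

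The caspase genes were far apart in abundance. Casp1 (chromosome 9, 5298517 to 5307265), the gene of the inflammasome's own protease, had 0, 0 and 2 counts in the repletion libraries and 0, 5 and 0 in the control libraries. No difference was detectable at that depth, with a ratio of 0.410 and a counting interval of 0.0390 to 2.50. Casp4 lies next to it on the same strand (5308828 to 5336783). Per kilobase of deposited gene length, Casp4 was the most abundant member in control and lay below Nek7 in all 3 repletion libraries. Casp4 had 70.8, 64.1 and 57.7 CPM in the repletion libraries and 113, 94.0 and 103 CPM in the control libraries. The groups were well apart, and the log2 fold change was -0.68 (SE 0.12, edgeR adjusted p = 0.000206). All 16 alternatives kept the call, with log2 fold changes between -0.78 and -0.62. Casp12 (5345430 to 5373032), the third caspase gene of this cluster, stood at 43.1 ± 6.88 CPM in the repletion group and 38.6 ± 1.47 CPM in control (SD, n = 3), and its log2 fold change was 0.16 (SE 0.13, edgeR adjusted p = 0.373).

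These neighbours share no near-identical stretch: the best alignment between the Casp4 and Casp1 transcripts covered 415 bases at 67.0% identity and that between Casp4 and Casp12 296 bases at 72.0%. The coding stretches around the catalytic cysteine are shown because they are a conserved part of the family and show how far the genes differ even there. They come from GENCODE M21 transcripts (GRCm38), with 18 bases on either side of the capitals, which mark the 15 bases that encode the conserved pentapeptide holding the catalytic cysteine. The stretches lie at chr9:5303741-5304203 for Casp1, chr9:5324925-5327192 for Casp4 and chr9:5353835-5354550 for Casp12, each across an intron, and at chr1:58844595-58844645 within an exon for Casp8, all on the plus strand.
Casp1: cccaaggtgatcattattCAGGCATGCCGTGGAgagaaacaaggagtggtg
Casp4: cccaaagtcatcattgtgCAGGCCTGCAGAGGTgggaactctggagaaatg
Casp12: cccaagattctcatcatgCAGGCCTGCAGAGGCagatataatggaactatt
Casp8: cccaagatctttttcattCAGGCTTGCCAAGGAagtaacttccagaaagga
Of the 51 bases, 35 are the same in Casp1 and Casp4, 34 in Casp4 and Casp12, and 28 in Casp4 and Casp8.

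Within a library, the ratio of Casp4 to Casp12 counts does not depend on scaling. It was 1.95, 1.28 and 1.35 in the repletion libraries and 2.79, 2.51 and 2.69 in the control libraries, without overlap. The RefSeq promoter of Casp4 is shown as that of a called member with a high level; it is chr9:5308599-5308898 on the plus strand in GRCm38.p6, with capitals for the 50 bases after the start.
Casp4 promoter: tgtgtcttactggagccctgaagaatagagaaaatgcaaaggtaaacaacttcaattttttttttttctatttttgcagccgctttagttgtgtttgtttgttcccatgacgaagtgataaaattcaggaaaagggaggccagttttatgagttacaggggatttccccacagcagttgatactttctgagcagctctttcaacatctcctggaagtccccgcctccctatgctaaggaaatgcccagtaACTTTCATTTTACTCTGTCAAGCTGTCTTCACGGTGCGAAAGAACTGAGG

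Casp8 (chromosome 1, 58795374 to 58847503) encodes the initiator caspase of death receptors, which can also process gasdermin D and restrains necroptosis. It had 44.6, 46.6 and 43.5 CPM in the repletion libraries and 49.0, 45.2 and 47.4 CPM in the control libraries, and the groups overlapped. The log2 fold change was -0.07 (SE 0.12, edgeR adjusted p = 0.659). Of 20 other caspase and death adaptor genes tested, its partners Fadd and Cflar were the 2 called higher (10.0%, against 20.5% of all tested features). Fadd, the adaptor that recruits caspase-8, stood at 13.3 ± 1.83 CPM in the repletion group and 5.55 ± 0.825 CPM in control (SD, n = 3) and rose by 1.26 (SE 0.21, edgeR adjusted p = 0.000161). Cflar, which encodes the caspase-8 regulator cFLIP, stood at 116 ± 3.95 CPM in the repletion group and 64.1 ± 2.06 CPM in control (SD, n = 3). It rose by 0.85 (SE 0.10, edgeR adjusted p = 8.9e-06), and by 0.55 with gene length and GC content modelled out. The ratio of Casp8 to Cflar counts was therefore lower, at 0.398, 0.407 and 0.363 in the repletion libraries and 0.773, 0.681 and 0.760 in the control libraries. Fadd shares 239 exonic bases with the antisense feature Faddos, which had 8 counts in the repletion libraries in all and 16 in control, and parts of the Cflar transcript recur in 144 other genes, so both values carry that uncertainty.

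**Figure D2:**
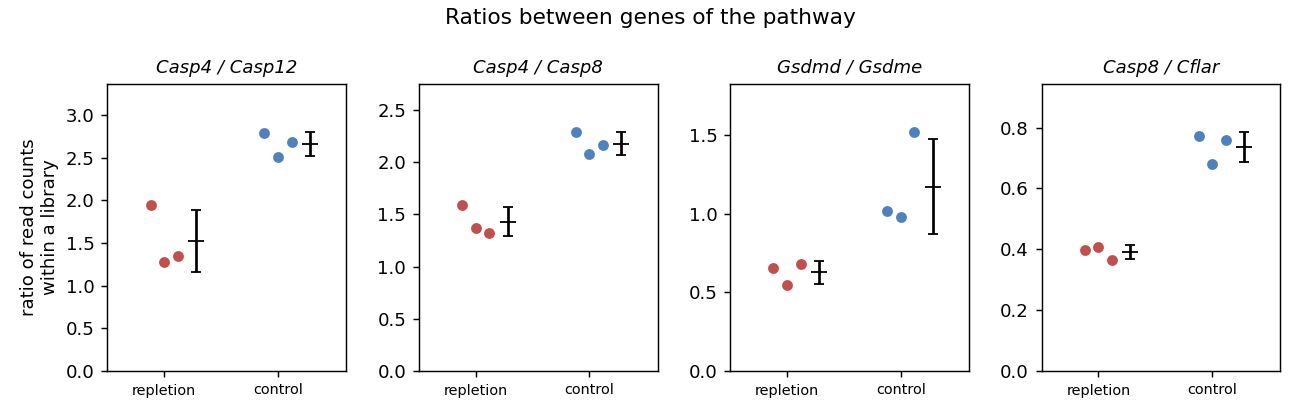
Ratio of read counts between pairs of pathway genes within each library (vertical axes start at 0), with repletion libraries in red on the left, control libraries in blue on the right and black bars for the mean ± SD of 3. In all 4 panels the 3 repletion libraries lie below the 3 control libraries, as in Casp4 over Casp12, where the highest repletion ratio was 1.95 and the lowest control ratio 2.51. Each pair sets a called gene against one not called, so the panels restate the fold changes and are no separate test. Of the pairs not drawn, Casp8 over Fadd was also lower in the repletion libraries, Casp4 over Gsdmd overlapped, and Nlrp1a over Dpp9 was higher.

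Gsdmd (chromosome 15, 75862327 to 75867408), the gene of the pore-forming protein gasdermin D, had 17.3, 18.7 and 18.9 CPM in the repletion libraries and 32.3, 27.7 and 38.3 CPM in the control libraries. The repletion libraries lay close together and all below the controls. The log2 fold change was -0.84 (SE 0.15, edgeR adjusted p = 0.000314), and it was between -0.97 and -0.72 in the 16 alternatives, all of which kept the call. Gsdme, a gasdermin gene whose product is cleaved by caspase-3, stood at 29.5 ± 4.23 CPM in the repletion group and 28.4 ± 3.31 CPM in control (SD, n = 3), and its log2 fold change was 0.05 (SE 0.15, edgeR adjusted p = 0.797). The ratio of Gsdmd to Gsdme counts was 0.652, 0.544 and 0.683 in the repletion libraries and 1.02, 0.978 and 1.52 in the control libraries. The ratio of Casp4 to Gsdmd counts overlapped between the groups, at 3.52 ± 0.532 in the repletion group and 3.18 ± 0.444 in control (SD, n = 3).

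The coding stretches at which inflammatory caspases cut their substrates are shown for the members that encode such substrates, gasdermin D and pro-IL-18. Capitals mark the 12 bases of the codons up to the cleaved aspartate, the codon numbered 276 in Gsdmd and 35 in Il18, and both stretches cross an intron on the plus strand, at chr15:75866149-75866315 and chr9:50575348-50577795 in GRCm38 (GENCODE M21).
Gsdmd: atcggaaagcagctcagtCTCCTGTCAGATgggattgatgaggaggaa
Il18: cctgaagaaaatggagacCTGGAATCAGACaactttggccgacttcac

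Ninj1 (chromosome 13, 49187485 to 49196244), which encodes the small membrane protein that ruptures dying cells, had 19.1, 12.7 and 20.8 CPM in the repletion libraries and 20.3, 20.0 and 18.2 CPM in the control libraries. The groups overlapped, and repletion replicate 2 alone was low. The log2 fold change was -0.15 (SE 0.18, edgeR adjusted p = 0.532), and it was 0.028 without that library.

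Il18 (chromosome 9, 50554827 to 50581840), the gene of a cytokine that caspase-1 releases from its precursor, had 6.13, 7.30 and 5.21 CPM in the repletion libraries and 4.64, 3.43 and 3.69 CPM in the control libraries. The groups did not overlap. The log2 fold change was 0.66 (SE 0.26, edgeR adjusted p = 0.0529), just short of the threshold. It passed with libraries scaled by their totals only (0.0360), with protein-coding genes only (0.0488), with gene length and GC content modelled out (0.0334) and without control replicate 1 (0.0483), and ranged up to 0.166 in the other alternatives.

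The authors' deposited table held fold changes that differed by at most 0.00858 on the log2 scale for the 7 tested members, with smaller adjusted p for the 3 called ones. In the authors' deposited table, the adjusted p was 1.61e-06 for Nlrp1a, 7.02e-07 for Casp4 and 1.22e-05 for Gsdmd. The authors' deposited table left the other 7 members above the threshold, with an adjusted p of 0.0939 for Nek7 and 0.0989 for Il18 as the nearest to it. For the 3 members without a test here, the authors' deposited table gave log2 fold changes of 0.59 for Nlrp3, 1.62 for Pycard and -1.39 for Casp1, with adjusted p of 0.737, 0.322 and 1.0. The 7 tested members had a median log2 fold change of -0.07, against 0.00 for all tested features, and the sign of this median turned in other fits, as with DESeq2 (0.22 over 9 members) and without repletion replicate 2 (0.028). The spread within a group also differed between members. Nek7 and Casp8 had coefficients of variation of 6.47% and 3.51% in the repletion group and 2.67% and 4.11% in control, and Gsdmd had 4.88% in the repletion group and 16.3% in control. Ninj1 was more variable in the repletion group (24.3%) than in control (5.74%), and Nlrp1a less variable in the repletion group (10.4%) than in control (75.3%), where it had few counts; no test of these spreads was made.

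**Figure D3:**
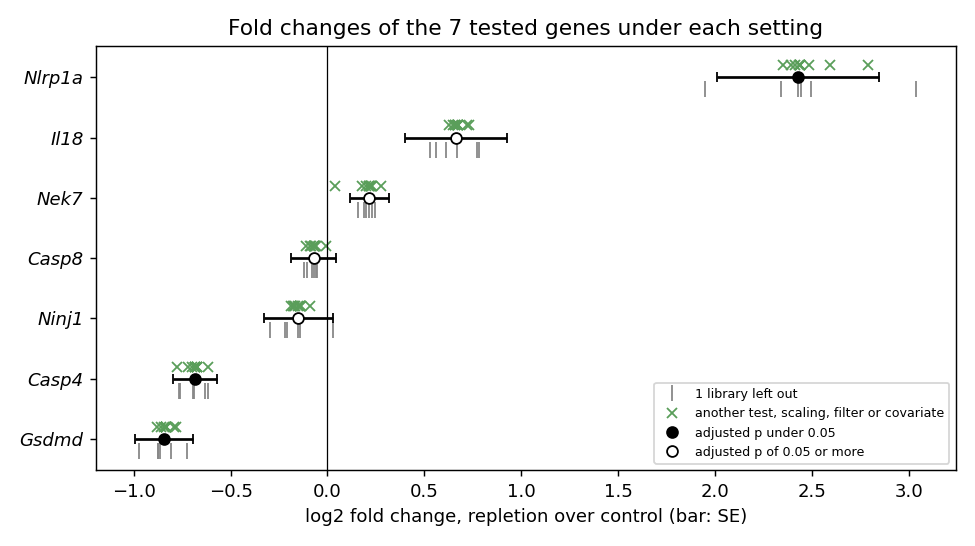
Log2 fold change, repletion over control, of the 7 tested genes (horizontal axis; circles with SE bars, filled where the adjusted p was under 0.05), with grey ticks for fits that leave out 1 library and green crosses for other tests, scalings, filters or covariates. Nlrp1a stays above 1.9 and Casp4 and Gsdmd stay below -0.6 in every fit shown, while Ninj1 reaches 0.028 in 1 of them.

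Divided by the deposited gene length, 6 members stood above Nlrp1a in both groups and 3 were close to undetected. The order depends on the length used. For Casp4 the deposited length is 3710 bases, and its longest annotated transcript has 1901, so its place beside Nek7 and Casp8 is uncertain. In the repletion group, Nek7 came first at 21.2 ± 1.37 CPM per kilobase, followed by Casp4 at 17.3 ± 1.77, Casp8 at 15.5 ± 0.545, Ninj1 at 11.2 ± 2.71, Gsdmd at 7.70 ± 0.375 and Il18 at 6.03 ± 1.02 (SD, n = 3). In control, Casp4 came first at 27.8 ± 2.50 CPM per kilobase, followed by Nek7 at 18.2 ± 0.487, Casp8 at 16.3 ± 0.671, Gsdmd at 13.8 ± 2.25, Ninj1 at 12.4 ± 0.713 and Il18 at 3.80 ± 0.621 (SD, n = 3). Casp4 and Casp8 overlapped in the repletion libraries, where Casp4 began at 15.5 and Casp8 reached 16.1 CPM per kilobase, and Gsdmd overlapped with both Ninj1 and Casp8 in the control libraries. Nlrp1a came seventh in both groups, at 1.80 ± 0.187 CPM per kilobase in the repletion group and 0.334 ± 0.251 in control (SD, n = 3). Nlrp3, Pycard and Casp1 stayed at or below 0.364 CPM per kilobase in every library.

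The wider pathway was described through 7 lists of 150 other genes, of which 145 were found by symbol and 114 were tested. Among them 25 rose and 32 fell, against 20.5% and 19.2% of all tested features. Their median log2 fold change was -0.08, and that of all tested features was 0.00. Without repletion replicate 3, the number that rose was 16.

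Regulators that act on NLRP1 and NLRP3 moved both ways. Of 22 tested, 9 rose (40.9%, against 20.5% of all tested features) and 6 fell (27.3%, against 19.2%), with a median of 0.09. Dpp9 and Dpp8, which encode the peptidases that hold NLRP1 inactive, stood at 101 ± 3.93 and 88.8 ± 6.10 CPM in the repletion group and 44.3 ± 0.727 and 46.9 ± 3.06 CPM in control (SD, n = 3). They rose by 1.19 (SE 0.11, edgeR adjusted p = 4.5e-07) and 0.92 (SE 0.11, adjusted p = 9.8e-06). The kinase gene Gsk3b rose by 0.92. With gene length and GC content modelled out, Dpp9, Dpp8 and Gsk3b rose by 1.04, 0.59 and 0.67. In that fit 8 genes of the list rose and 8 fell, with a median of -0.03. Of all 13804 tested features, 2238 rose and 3550 fell there. Fbxl2, the gene of a ubiquitin ligase subunit, fell by 1.85 and Gbp5, a guanylate-binding protein gene linked to NLRP3 assembly, fell by 0.86. Fbxl2 shares 496 exonic bases with Ubp1 on the opposite strand, so its value is uncertain.

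Few other sensors and adaptors were called. Of 14 tested, only Nod1, a cytosolic peptidoglycan sensor gene, rose by 1.15 (SE 0.22, edgeR adjusted p = 0.000705) and the other 13 did not pass. The share called higher was 7.14%, against 20.5% of all tested features, and none was called lower, against 19.2%. Nlrp1b, Nlrp9b, Naip1 and Mefv had 0 counts in all 6 libraries. With gene length and GC content modelled out, 2 of the 14 were called lower.

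Guanylate-binding proteins and related GTPases uncoat bacteria and help caspase-11 reach lipopolysaccharide. Of 13 of their genes tested, 9 fell (69.2%), against 19.2% of all tested features, and the other 4 did not pass. The median log2 fold change was -0.48. Gbp2 stood at 36.2 ± 5.99 CPM in the repletion group and 69.4 ± 7.51 CPM in control (SD, n = 3), and its log2 fold change was -0.94 (SE 0.14, edgeR adjusted p = 5.2e-05). Gbp6 fell by 1.87 and Igtp fell by 1.27, but Gbp6 shares 1380 bases at 98.5% identity with Gbp10, and Igtp overlaps 162 exonic bases of Irgm2, so these are uncertain. The number that fell was 5 without control replicate 3 or without repletion replicate 3.

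Transcription factor genes known to act on these genes also moved both ways. Of 14 tested, 4 rose and 4 fell (28.6% each, against 20.5% and 19.2% of all tested features), with a median of -0.19. Irf2, whose product activates Gsdmd transcription in mouse macrophages, stood at 32.4 ± 0.478 CPM in the repletion group and 18.8 ± 1.65 CPM in control (SD, n = 3). It rose by 0.78 (SE 0.14, edgeR adjusted p = 0.000270). Gsdmd was lower, and any part of Irf2 in that was not tested. Irf1, an interferon-induced factor gene that acts on Gbp genes, fell by 1.11, Stat2, of interferon signalling, fell by 0.79 and Nfe2l2, the antioxidant factor gene, fell by 0.73. Nfkb1, the gene of an NF-kB subunit, rose by 0.35, and by 0.05 with gene length and GC content modelled out; its call was lost there and without control replicate 2 or repletion replicate 3. Irf8, a factor gene of myeloid cells, rose by 0.50 (edgeR adjusted p = 0.0436), and did not pass in any fit that left out 1 library. The number that rose was 1 without control replicate 2 or repletion replicate 3, and 2 without control replicate 1, control replicate 3 or repletion replicate 1, with DESeq2, without the filter or with gene length and GC content modelled out. In that last fit 7 fell.

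Of 20 other caspase and death adaptor genes tested, Fadd and Cflar rose (10.0%, against 20.5% of all tested features) and 5 fell (25.0%, against 19.2%), with a median of -0.21. Serpinb9, the gene of a granzyme B inhibitor, fell by 0.93. Zbp1, which encodes a sensor of Z-form nucleic acids, fell by 1.18, but its call was lost without control replicate 2 or 3 and without repletion replicate 2 or 3, each left out alone. The number that fell was 3 without control replicate 1, repletion replicate 2 or repletion replicate 3, 2 without control replicate 2 or 3, 3 with RLE factors, library size only or at least 1 CPM in 3 samples, and 8 with gene length and GC content modelled out.

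Among gasdermin, membrane repair and Ragulator genes, 4 of 19 tested rose (21.1%) and 7 fell (36.8%), with a median of -0.06. Over all tested features, 20.5% were called higher and 19.2% lower. Chmp6, an ESCRT-III gene of membrane repair, rose by 1.15 and Lamtor3 rose by 0.52, whereas Lamtor4, Lamtor5 and Rraga, whose products with Lamtor3 sit on the lysosome in the Ragulator-Rag complex needed for gasdermin D pores in macrophages, fell by 1.02, 0.50 and 0.48. Lamtor5 shares 276 bases with near-identical copies. Chmp4c rose by 0.42 and overlaps 330 exonic bases of Snx16 on the opposite strand. Its call was lost without control replicate 2, repletion replicate 2 or repletion replicate 3, without the filter and with the replicate block. The call was also lost with gene length and GC content modelled out, where the log2 fold change was 0.17. The number of genes that rose was 2 when any 1 of those 3 libraries was left out and in each of the other fits just named.

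On the side of the cytokines, 5 of 12 tested IL-1 family genes rose (41.7%, against 20.5% of all tested features). A further 1 fell (8.33%, against 19.2%), and the median was 0.22. Il1r1, the IL-1 receptor gene, stood at 17.3 ± 0.745 CPM in the repletion group and 9.17 ± 0.869 CPM in control (SD, n = 3), and its log2 fold change was 0.91 (SE 0.17, edgeR adjusted p = 0.000508). Il18rap, the accessory chain gene of the IL-18 receptor, had 85, 49 and 122 counts in the repletion libraries and 20, 41 and 34 in the control libraries and rose by 1.39, a call lost without repletion replicate 3. Its partner Il18r1 had 2 counts in the repletion libraries in all and 0 in control. Il1b, the gene of the cytokine IL-1 beta, had 1 count in the repletion libraries in all and 3 in control. Irak4, a kinase gene downstream of these receptors, rose by 0.64 but shares 395 exonic bases with Twf1 on the opposite strand. Twf1 had 2118, 2531 and 2422 counts in the repletion libraries and 1068, 1062 and 1089 in control. The Irak4 value is therefore uncertain, and the part of Twf1 reads in it was not tested. Irak1 fell by 0.48. The number that rose was 3 without control replicate 2, control replicate 3 or repletion replicate 2, and 2 without repletion replicate 3.

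**Figure D4:**
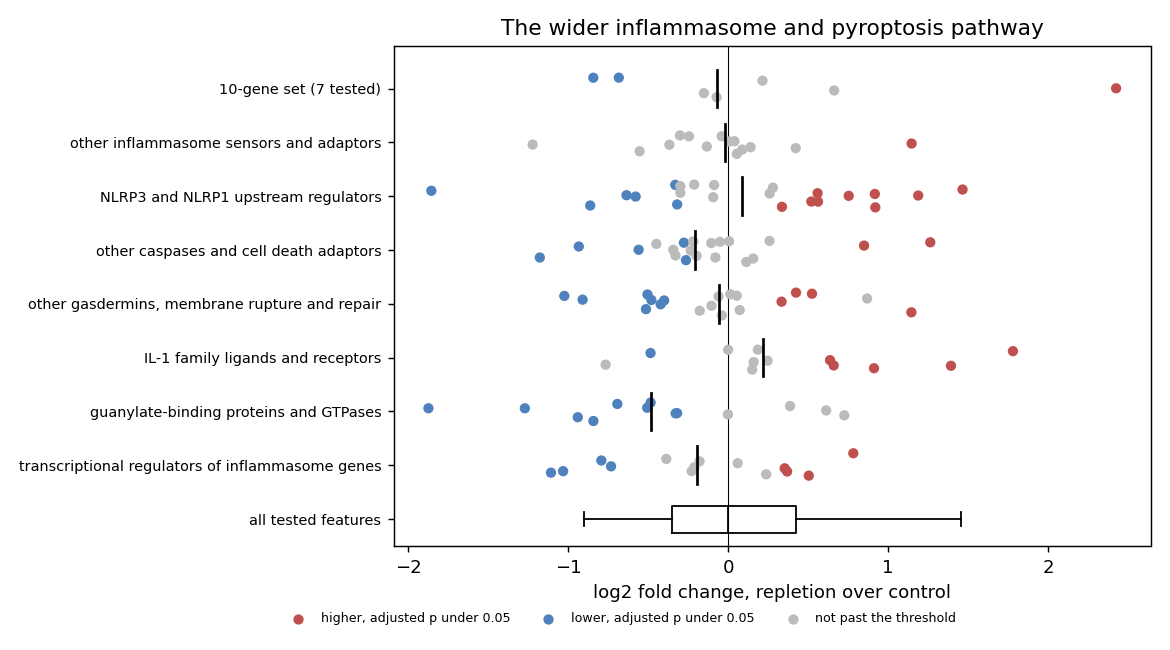
Log2 fold change, repletion over control, of each tested gene (points; vertical position within a row is random) in the 10-gene set and the 7 pathway lists, coloured by call, with a black bar at each list's median and, for all 13804 tested features, a box from the first to the last quartile with whiskers at the 5th and 95th percentiles. The guanylate-binding row has its median at -0.48 with 9 of 13 genes called lower, and the other rows hold calls on either side or few calls.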

How the data were processed

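Mouse endothelial RNA-seq libraries were grouped by sample titles, 3 per group. Per the submitters' processing notes, HISAT2 2.0.5, featureCounts 1.5.0-p3, DESeq2 1.20.0 and GRCm38.p6 were used, without roles; no strand setting or annotation release is named, so reads of overlapping antisense features cannot be told apart. The authors deposited raw counts per gene, FPKM scaled per sample, group mean signal (scaled counts), a log2 fold change, and p-values with adjusted p-values; only counts were tested. Of 55232 features, 700 carry no Ensembl identifier. Counts were filtered with filterByExpr (13804 left), scaled with TMM (factors 0.970 to 1.03) and tested with edgeR 4.0.16 in R 4.3.3, two-sided, by quasi-likelihood with Benjamini-Hochberg adjustment over all tested features. The common biological coefficient of variation was 14.1%. Alternatives used DESeq2 1.42.0, limma 3.58.1 (voom), other scalings and filters, a replicate block, length and GC trends (GENCODE M21, same build) and each library left out. Copies were sought with BLAST 2.17.0 at 95% identity over at least 100 bases. The test was checked on simulated counts, where it recovered 44.8% of 1.5-fold, 70.1% of 2-fold and 92.4% of 4-fold changes. It made 4 false calls with 13511 genes run, so many changes of about 1.5-fold would be missed in that setting. Only 200 genes were changed there, against 5484 features called in these data, so the rates need not hold for the real test.

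The members and gene lists were chosen with earlier results of these data known. All members were named; from each pathway list, up to 3 genes with the smallest p in each direction past the threshold; from each marker list, the most abundant. Other genes were chosen after their values were seen. Some genes that the rule names are not reported here. Depth was 15582349 to 17817618 counts per library; intervals and floors cover counting error only.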

Additional observations from a re-analysis of the deposited data

How the results depend on the processing

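The higher call of Nlrp1a and the lower calls of Casp4 and Gsdmd held in all 16 alternatives, and the number of members called lower was 2 in each. The number called higher, 1 in the report, was 3 with library size only (Il18 and Nek7 added) and 2 with protein-coding genes only or with the length and GC trend removed (Il18 added); leaving out 1 library gave 1 to 2. For the other pathway genes, leaving out 1 library gave 16 to 24 higher. The log2 fold change of Ninj1 was -0.29 to 0.028 with 1 library left out and changed sign without repletion replicate 2; the cause was not tested. The medians of the members and of the sensor, upstream and gasdermin lists, all near 0, changed sign under some alternatives. Over all features, 2238 were higher and 3550 lower (38.7% of calls higher) with the length and GC trend removed, against 2830 and 2654 (51.6%) in the report and 3214 and 2199 (59.4%) with library size only. With the replicate block, 1 member was higher and 2 were lower, as were 20 and 27 other pathway genes. In that fit 2 gasdermin-list genes and 2 transcription factor genes were higher, and 3 caspase-list and 6 GTPase genes were lower. Deviations of same-numbered samples correlated at -0.08, -0.03 and 0.06. No shared shift is visible in them, but they cannot tell whether the numbers pair the samples, which the labels do not say. Of 608 values for 38 named genes, 578 kept direction and side of the threshold. Depth limits Casp1, Nlrp3 and Pycard, each under 40 counts per group.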
